A study of Mus musculus with 4 samples.

Results

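Retinoic acid is the active form of vitamin A, and 10 genes of its synthesis, breakdown, binding and reception were followed in mouse lens epithelium after UVB. They were chosen by name and found as the probe sets annotated to a single one of these symbols. Each of the 10 had 1 such probe set, on arrays of 28944 probe sets, which covered 19938 genes in the same way. Lens epithelia of UVB-irradiated right eyes were compared with those of left eyes of the same mice, which were covered with aluminum foil during the exposure. The mice were C57BL/6 males of 8 weeks, under anesthesia during the exposure, the dose was 30 mJ/cm2, and RNA was taken after 24 h. Each of 2 independent experiments gave 1 array per condition, with 3 mice per animal experiment. The sources used here do not state whether the RNA of these mice was pooled on an array. The lens was freed of other tissues, the retina among them, and of its cortex and nucleus before RNA extraction.

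Cells oxidize retinol to retinaldehyde and then, by the retinaldehyde dehydrogenases of the Aldh1a family, to retinoic acid. Crabp1 binds retinoic acid in the cytoplasm, and enzymes of the Cyp26 family break it down. In the nucleus, retinoic acid binds receptors of the RAR family, which sit on DNA as pairs with RXR receptors and control genes such as Rarb and Cyp26a1. In the embryo, the pathway is known for its part in forming the eye.

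All values are log2 signals, and differences are UVB minus control. The arrays had median signals of 7.22 and 7.21 in UVB-irradiated and 7.19 and 7.20 in control epithelia. All 10 measured lens epithelium markers lay above the median control signal, among them Foxe3 (11.14 and 11.13 after UVB, 11.27 and 11.28 in control). Photoreceptor markers were present in both groups. Their summed linear signal over 18 genes was 16450 and 20005 after UVB, against 10569 and 8733 in control, and all 18 were higher after UVB in both experiments. The sum of 12 pigment epithelium and visual cycle markers was 7879 and 7764 after UVB, against 4102 and 4108 in control. Of the 12, 10 were higher in both experiments, Slc16a3 was lower in both, and Mitf was higher in experiment 1 and lower in experiment 2. Of all 28944 probe sets, 6943 were higher in both experiments and 10811 lower in both. In such whole-tissue RNA, fewer cells of a type and less RNA per cell cannot be told apart. In each probe set, the signals of experiment 1 and of experiment 2 had the same sum within 0.02, so that an array above its group's mean is mirrored by the other array of its experiment. Groups therefore do not overlap where the 2 experiments have the same sign.

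None of the 10 retinoic acid genes changed by the thresholds used, which were 1.8-fold and an unadjusted p of 0.01 in a limma fit with the experiment as a block. Of all probe sets, 0.0622% were higher by these thresholds and 0% were lower. The log2 fold changes of the 10 genes lay between −0.19 and 0.28, with a median of −0.03, against a median of −0.02 over all probe sets. At an adjusted p of 0.05, 0 of the 10 passed, as did 0% of all probe sets. At an unadjusted p of 0.05 in limma it was again 0 of the 10, against 13.4% of all probe sets. Without the block, 0 of the 10 had an adjusted p under 0.05, against 17.6%, and 3 an unadjusted p under 0.05, against 38.1%. These 3 were Rxrb, Aldh1a1 and Aldh1a3. No gene of the 10 was more than 1.2-fold higher in both experiments (1.90% of all probe sets) or more than 1.2-fold lower in both (0.739%). The groups did not overlap in 6 of the 10, a share close to the 61.3% of all probe sets. With 2 arrays against 2 taken as unpaired, no exact permutation p for a single gene can be below 0.333. Pairing the arrays by experiment allows fewer arrangements and a higher limit. The p-values of limma measure only the spread between these 4 arrays.

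**Figure D1:**
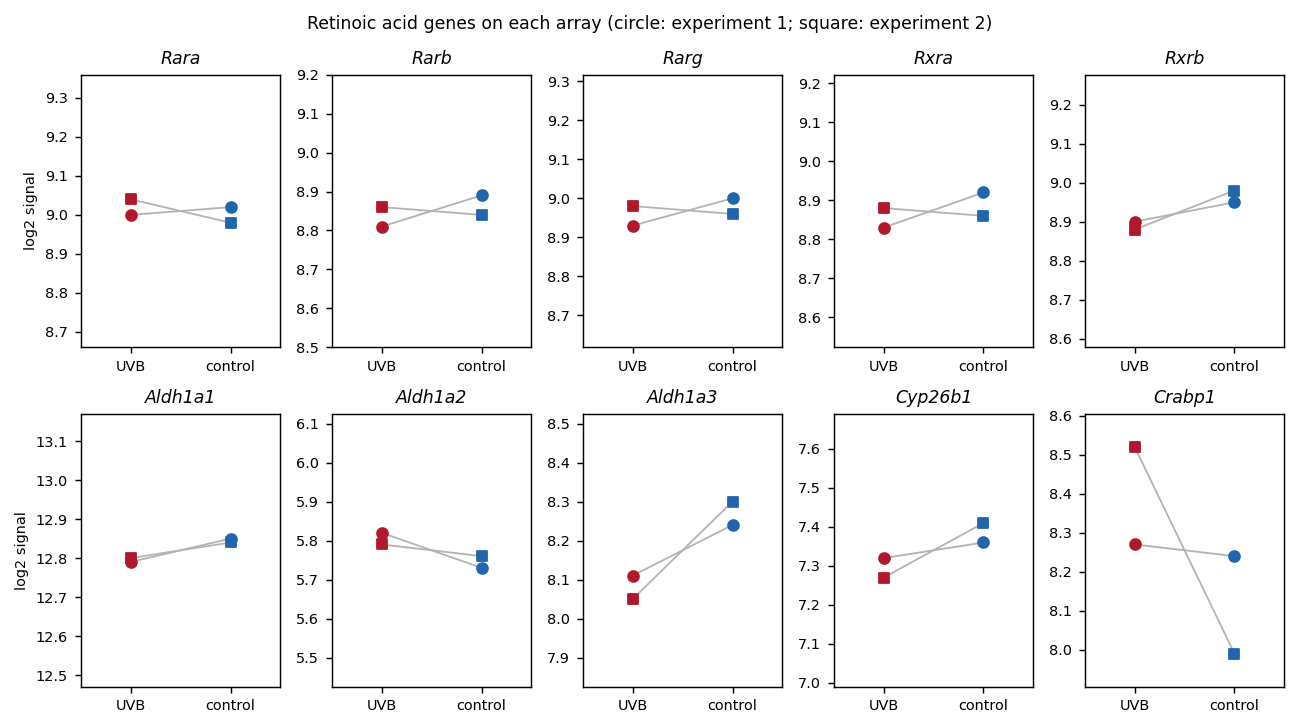
Log2 signal (vertical, each panel spanning 0.7) of the 10 retinoic acid genes in UVB-irradiated and control epithelia, with circles for experiment 1, squares for experiment 2 and a line joining the arrays of 1 experiment. The lines are close to flat except for Crabp1 in experiment 2 (8.52 after UVB, 7.99 in control) and, less so, Aldh1a3.

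The 3 retinoic acid receptor genes stayed close to their control signals. Rara, which encodes the alpha receptor, had signals of 9.00 and 9.04 after UVB, against 9.02 and 8.98 in control. Rarb, the beta receptor and itself a target of retinoic acid, had 8.81 and 8.86 after UVB, against 8.89 and 8.84 in control. Rarg, the gamma receptor, had 8.93 and 8.98 after UVB, against 9.00 and 8.96 in control. In each of the 3, the groups overlapped, since the UVB array was the lower one in experiment 1 and the higher one in experiment 2. The log2 fold changes were 0.020 for Rara, −0.030 for Rarb and −0.025 for Rarg (standard errors 0.038, 0.044 and 0.041). The lowest unadjusted p from limma was 0.557, for Rarb.

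The RXR genes encode the partners with which these receptors bind DNA. Rxra had signals of 8.83 and 8.88 after UVB, against 8.92 and 8.86 in control, which is the same crossing of the 2 experiments. The pattern of a lower UVB array in experiment 1 and a higher one in experiment 2 was shared by 4 of the 5 receptor genes and by 14.3% of all probe sets. Rxrb was the exception. It had 8.90 and 8.88 after UVB, against 8.95 and 8.98 in control, and its groups did not overlap. The difference was −0.05 in experiment 1 and −0.10 in experiment 2. Their mean of −0.075 had a standard error of 0.032, and limma's adjusted p was 0.410. For the 5 receptor genes, no difference in a single experiment exceeded 0.10 in size, and the 95% intervals of their mean changes reached 1.16-fold at most.

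As a target, Rarb is known for the response element of retinoic acid in its promoter. RefSeq lists for it a promoter on the minus strand at chr14:16575427-16575726 (GRCm38.p6), which lies within the annotated span of the gene. The promoter of Cyp26a1, another target and the main breakdown enzyme of many tissues, lies on the plus strand at chr19:37697558-37697857. Both are shown 5′ to 3′, since they carry such an element in genes that respond to retinoic acid. Capitals mark 2 half-sites in the same orientation and 5 bases apart. A half-site is AGGTCA or its variants AGTTCA and GGGTCA, as well as GGTTCA, or the reverse complement of one of these.
Rarb: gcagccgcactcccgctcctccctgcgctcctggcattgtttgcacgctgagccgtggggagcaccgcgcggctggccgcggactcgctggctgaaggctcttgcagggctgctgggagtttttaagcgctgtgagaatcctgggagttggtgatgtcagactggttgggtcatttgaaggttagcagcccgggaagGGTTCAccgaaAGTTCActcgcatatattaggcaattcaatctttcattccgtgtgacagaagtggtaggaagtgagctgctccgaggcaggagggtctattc
Cyp26a1: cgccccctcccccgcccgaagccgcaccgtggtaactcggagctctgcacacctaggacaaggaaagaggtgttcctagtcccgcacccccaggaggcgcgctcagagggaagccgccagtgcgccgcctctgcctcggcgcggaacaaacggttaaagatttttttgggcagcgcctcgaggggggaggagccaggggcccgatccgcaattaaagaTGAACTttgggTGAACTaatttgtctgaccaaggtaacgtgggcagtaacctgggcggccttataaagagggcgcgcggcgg

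The repeat lies at −53 to −37 from the start site of Rarb and at −32 to −16 in Cyp26a1, where it reads on the opposite strand. On either strand, such a repeat spaced by 5 bases was found in 0.0974% of the 32851 RefSeq promoters of this length. Of the 10 genes, 9 had a promoter in the table, and of their 16 promoters Rarb's held such a repeat. None of the 16 held the repeat spaced by 1 or by 2 bases, which 0.222% and 0.268% of all promoters did. A match is a description of the letters and not of binding. In the arrays, Rarb differed by −0.08 in experiment 1 and 0.02 in experiment 2. Cyp26a1 had signals of 8.47 and 8.49 after UVB, against 8.67 and 8.65 in control, so that its groups did not overlap. Its log2 fold change was −0.18 (standard error 0.030), or 0.883-fold, with 0.0224 as limma's unadjusted p. Its adjusted p was 0.357. Without the block, which underestimates the spread, it was 0.0238, and 17.6% of all probe sets were then under 0.05.

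Of the genes that make retinoic acid, Aldh1a3 had the largest difference and was lower after UVB in both experiments. Its signals were 8.11 and 8.05 after UVB, against 8.24 and 8.30 in control. Its product makes retinoic acid in the ventral retina of the mouse. The groups did not overlap, and the differences were −0.13 and −0.25 in experiments 1 and 2. The log2 fold change was −0.19 (standard error 0.049), or 0.877-fold. The unadjusted p in limma was 0.0526 and the adjusted p was 0.357, so that Aldh1a3 did not pass either threshold, and 11.6% of all probe sets had a larger change. Without the block, the unadjusted p was 0.0159 (adjusted p = 0.0682).

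Aldh1a1, an enzyme found in lens and cornea that also detoxifies aldehydes, had the most even values. Its signals were 12.79 and 12.80 after UVB, against 12.85 and 12.84 in control. The groups did not overlap, but the log2 fold change was only −0.050 (standard error 0.028), and limma's adjusted p was 0.469. Aldh1a2, the enzyme that makes retinoic acid in much of the embryo, lay below the array medians, with 5.82 and 5.79 after UVB, against 5.73 and 5.76 in control. The groups did not overlap. The difference was 0.09 in experiment 1 and 0.03 in experiment 2, and the mean of 0.060 had a standard error of 0.034. Of the 3 synthesis genes, 2 were therefore lower and 1 was higher in both experiments, and none was called. Of all 28944 probe sets, 10811 were lower and 6943 higher in both experiments. The 95% interval of the mean change reached 1.12-fold for Aldh1a1, 1.15-fold for Aldh1a2 and 1.31-fold for Aldh1a3.

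Cyp26b1, which breaks down retinoic acid, had signals of 7.32 and 7.27 after UVB, against 7.36 and 7.41 in control. The groups did not overlap, with differences of −0.04 and −0.14 in experiments 1 and 2. Their mean of −0.090 had a standard error of 0.044, and limma's adjusted p was 0.439. The 95% interval of the mean change ran from −0.26 to 0.083.

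Crabp1 had the largest difference of the 10 genes, and it came from experiment 2. Its signals were 8.27 and 8.52 after UVB, against 8.24 and 7.99 in control. The difference was 0.03 in experiment 1 and 0.53 in experiment 2, and no other of the 10 genes had experiments that far apart. A gap of 0.5 or more between the experiments was found in 1.66% of all probe sets. The log2 fold change of 0.28 (standard error 0.17) was 1.21-fold, and limma's p was 0.234 before and 0.494 after adjustment. Its 95% interval ran from −0.40 to 0.96, which takes in a change of up to 1.95-fold. With 1 array of experiment 2 left out, whichever it was, the log2 fold change was 0.155 in a fit without the block. With 1 array of experiment 1 left out it was 0.405. Each of these fits still held the other array of that experiment.

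The 5 genes whose pair of differences was nearest to that of Crabp1, by Euclidean distance over the differences of the 2 experiments, were Vmn1r172, Necab2, Dcn, Igsf6 and Foxi3. Dcn, which encodes the matrix proteoglycan decorin and is one of the choroid and vessel markers, had differences of 0.02 and 0.48. Of those 10 markers, 3 were higher and 5 lower in both experiments. For comparison with this and the following counts, 6943 of all 28944 probe sets were higher and 10811 lower in both. Their summed linear signal was 1230 and 1290 after UVB, against 1198 and 1150 in control. Of 9 ciliary body and iris markers, 7 were higher and 1 lower in both. Of 8 Müller glia and dorsal or ventral retina markers it was 5 and 0, and of 9 leukocyte markers 5 and 1. Of 8 cornea and conjunctiva markers it was 1 and 4, and of 2 red blood cell markers 1 and 1. Crabp2, which like Crabp1 binds retinoic acid, differed the other way in experiment 2. Its signals were 7.08 and 6.82 after UVB, against 7.02 and 7.29 in control. Its log2 fold change was −0.205 (standard error 0.18). Whether cells of other tissues had a part in the values of Crabp1 was not tested.

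**Figure D2:**
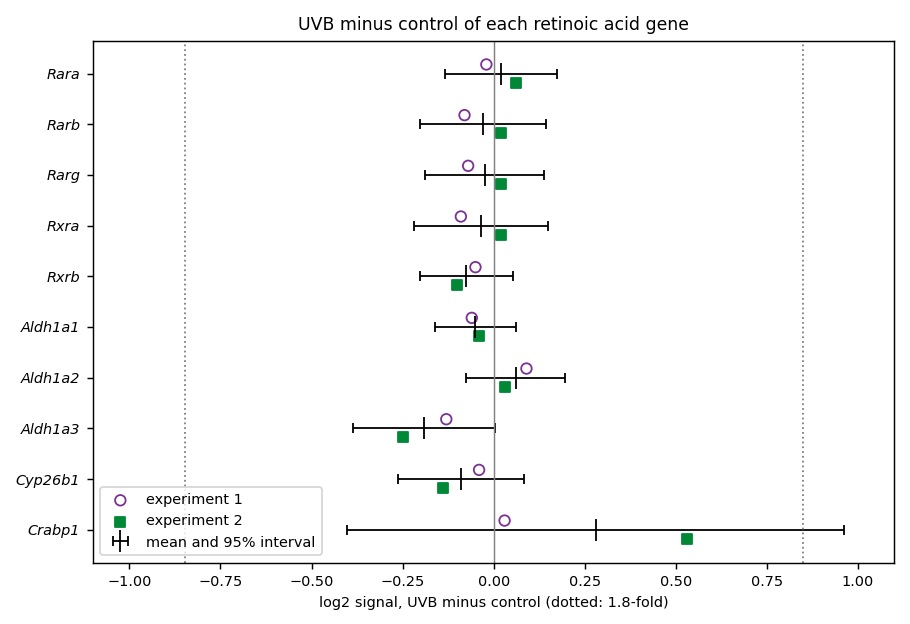
Log2 signal of UVB minus control for each of the 10 genes in experiment 1 (open circles) and experiment 2 (filled squares), with the mean and its 95% interval from limma with the experiment as a block. Dotted lines mark 1.8-fold, which the interval of Crabp1 crosses and the intervals of the other 9 genes, reaching 1.31-fold at most, do not.

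Beyond the 10 genes, 66 further genes of retinoid handling, retinoic acid targets, coregulators and RXR partners were listed, of which 60 had a probe set of their own. Of these 60, 2 passed the thresholds (3.33%, against 0.0622% of all probe sets), Ttr and Rdh12, both of them higher, and 0 were lower. Their median log2 fold change was 0.0050. More than 1.2-fold higher in both experiments were 5 of the 60 (8.33%, against 1.90% of all probe sets), namely Ttr, Lrat, Rdh12, Stra6 and Rdh10, and 0 were more than 1.2-fold lower in both. At an unadjusted p of 0.05 in limma, 4 were higher and 4 lower, together 13.3% of the 60 and close to the 13.4% of all probe sets. At an adjusted p of 0.05 it was 0.

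Both genes that passed handle retinol or retinaldehyde. Ttr, which carries retinol-binding protein with its retinol, had signals of 10.71 and 10.75 after UVB, against 9.14 and 9.09 in control. It rose 3.06-fold (unadjusted p = 3.75e-04 in limma, adjusted p = 0.357). Rdh12, a photoreceptor enzyme that reduces retinaldehyde, had 8.22 and 8.30 after UVB, against 7.40 and 7.32 in control. It rose 1.87-fold (unadjusted p = 0.00314 in limma, adjusted p = 0.357). Lrat, which esterifies retinol for storage, had 8.63 and 8.24 after UVB, against 6.87 and 7.27 in control, at an unadjusted p of 0.0306. Stra6, the receptor for retinol-binding protein, had 9.07 and 8.84 after UVB, against 8.25 and 8.47 in control, at an unadjusted p of 0.0536. The groups overlapped in none of these 4 genes, which follows from their same sign in both experiments. The same held for 61.3% of all probe sets. Ttr and Lrat also belong to the 12 pigment epithelium markers and are part of their summed signal, which is therefore not independent of them. That sum and the sum of the photoreceptor markers differed between the groups as given above. The part of those cells in these values was not tested.

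Rdh10, which oxidizes retinol in the step that feeds the Aldh1a enzymes, had the same difference in both experiments. Its signals were 9.96 and 9.96 after UVB, against 9.60 and 9.60 in control. The log2 fold change of 0.36 (standard error 0.027) was 1.28-fold, under the fold threshold. In limma, its p was 0.00405 before and 0.357 after adjustment. Without the block its adjusted p was 0.0210, and 17.6% of all probe sets were then under 0.05. Among the other 14 genes of synthesis and breakdown, Adh7 and Adh5, alcohol dehydrogenases, and Cyp26a1 had an unadjusted p under 0.05 as lower. Adh7 had a log2 fold change of −0.20 and Adh5 one of −0.16 (unadjusted p of 0.0153 and 0.0286 in limma). Adh1, which also oxidizes retinol, differed by −0.05 in experiment 1 and −0.87 in experiment 2.

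Of 20 listed targets of retinoic acid, 17 were measured, Rarb and Cyp26b1 included, and 0 passed the thresholds. Their median log2 fold change was −0.040, with 5 higher and 5 lower in both experiments. Of all 28944 probe sets, it was 6943 and 10811. The 2 with the smallest p were Cyp26a1, described above, and Lrat. After Lrat and Stra6, the target with the largest log2 fold change was Rarres2, which encodes the chemoattractant chemerin. Its signals were 8.69 and 8.85 after UVB, against 8.44 and 8.27 in control, and its groups did not overlap. The log2 fold change was 0.415 (unadjusted p = 0.0606 in limma). The remaining 14 targets lay between −0.205 and 0.13. For the 10 measured coregulators the median was 0.0075, and the values lay between −0.10 and 0.10. Tbl1xr1, a part of corepressor complexes, had −0.10, and Ncoa1, a coactivator, had 0.085. For 12 other partners of RXR the median was 0.0075 as well, and Thrb, a thyroid hormone receptor, had −0.15 with the same difference in both experiments (unadjusted p = 0.0260 in limma). Ppara, the fatty acid receptor, had 0.11. Rxrg, the third RXR gene, had 11.13 and 11.19 after UVB, against 11.13 and 11.08 in control.

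**Figure D3:**
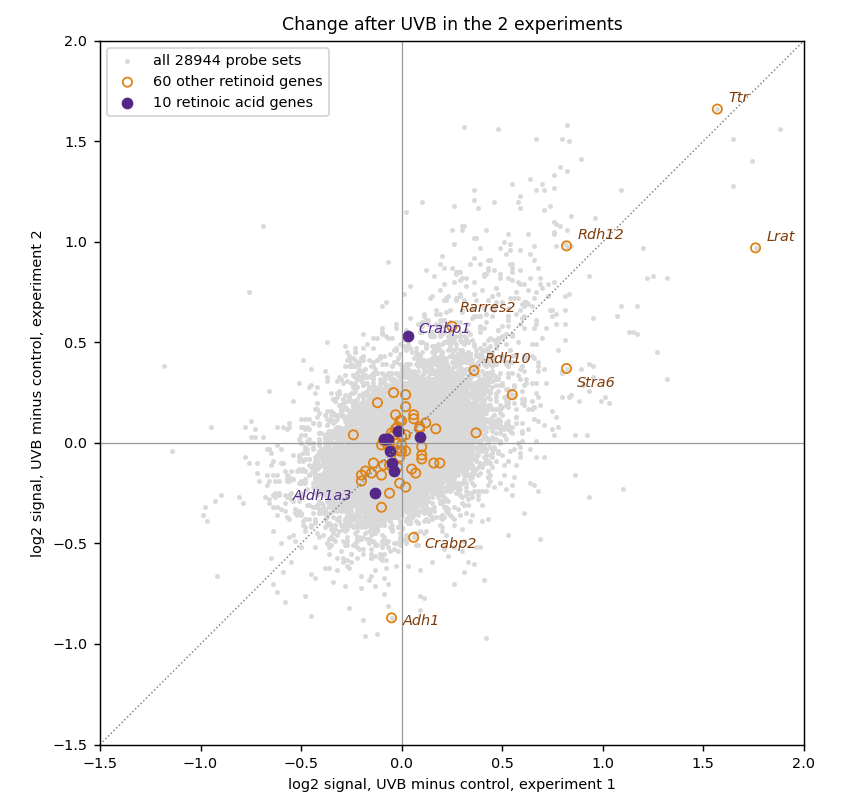
Log2 signal of UVB minus control in experiment 1 (horizontal) and experiment 2 (vertical) for all 28944 probe sets (grey), 60 other retinoid genes (open circles) and the 10 retinoic acid genes (filled circles), with equal changes on the dotted line. The 10 genes lie near the centre except Crabp1, at 0.03 and 0.53, while Ttr, Lrat, Rdh12, Stra6 and Rdh10 lie to the upper right.

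**Figure D4:**
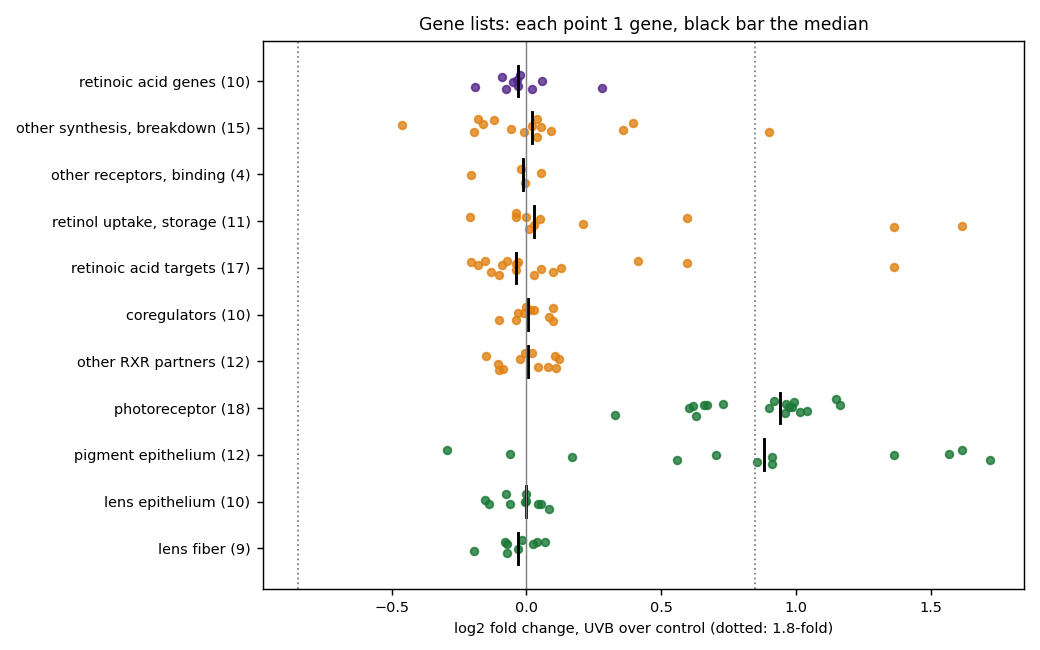
Log2 fold change of UVB over control for each measured gene of the pathway lists and of marker lists of the eye, 1 point per gene, with the median of a list as a black bar, the number of genes in brackets and 1.8-fold as dotted lines. The median was −0.03 for the 10 retinoic acid genes, 0.94 for photoreceptor and 0.88 for pigment epithelium markers, and −0.0025 for lens epithelium and −0.03 for lens fiber markers.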

How the data were processed

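The deposited values are normalized log2 signals per probe set, given to 2 decimals and made by the authors with Affymetrix Expression Console, according to the submitters' processing notes. How background was corrected and probes were summarized is not stated there. The methods name a human array, whereas the probe sets carry mouse symbols, which were used. Of 28944 probe sets, 21789 had 1 symbol, 1621 several and 5534 none. A gene was given by its single-symbol probe set with the highest mean. The experiment number came from the titles, in which arrays of experiment 1 carry none. All 4 arrays were fitted together in limma 3.58.1 (R 4.3.3), two-sided, with Benjamini-Hochberg adjustment over all probe sets. The experiment was a block because both eyes came from the same mice. As a check of this pairing, arrays of 1 experiment deviated from the means of their groups with a correlation of −0.998, which the equal experiment sums produce. The block leaves 1 residual degree of freedom, so the number of arrays limits the precision, and the spread without it is underestimated. The fit was run on simulated data, where the check was on the median estimated changes and not on the p-values.

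The 10 genes, the other lists and the thresholds were chosen with earlier results of these data known. Named were all 10 genes and, of each other list, up to 4 genes past 1.8-fold and an unadjusted p of 0.01, or else the 2 with the smallest p, as well as the 5 genes nearest to Crabp1 and those of small counts. Stra6 and Rdh10 come from such a count. Adh1, Adh5, Adh7 and Rarres2 were added after their values were seen. For the marker lists the rule's genes are left out except Foxe3 and Ttr, and counts, sums or medians stand for them. Promoters are those of RefSeq (GRCm38.p6). Alternatives were the fit without the block, other scalings, limma priors, filters, thresholds, Student's t-test and leaving out each array. RT-qPCR, immunostaining and the experiments on human cells were not analysed here.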

Additional observations from a re-analysis of the deposited data

How the results depend on the processing

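Settings that can move a log2 fold change are the other scalings and leaving out an array. They gave 70 values for the 10 genes, of which 70 kept their direction or lay at 0. This is a weak check of direction. With equal experiment sums, leaving out either array of an experiment gave nearly the same value. Between the 2 experiments, the direction differed in 4 of the 10 genes, Rara, Rarb, Rarg and Rxra. The other settings change only the p. The count of the 10 genes past 1.8-fold and an unadjusted p of 0.01 was 0 under each alternative with those thresholds, and 0 with each array left out. It was 3 at an unadjusted p of 0.05 with no replicate block and no fold threshold. Leaving out 1 array in turn gave Crabp1 log2 fold changes of 0.155 to 0.405 and Aldh1a3 −0.22 to −0.16. The unadjusted p of Aldh1a3 was 0.0334 with quantile normalization, 0.0339 after centring on array medians and 0.0811 with equal 75th percentiles. It was 0.0440 with an intensity trend, 0.0216 with a robust prior and 0.0464 by Student's t-test. Its adjusted p was between 0.0682 and 0.400.

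Of all probe sets, 18 passed with the replicate block and 32 without it, 39 with quantile normalization and 48 with the robust prior. The count was 15 with centring on array medians, 14 by Student's t-test and 12 among the 14478 probe sets at or above the median level. At 1.5-fold, 69 passed, or 108 with no replicate block. At an adjusted p of 0.05 without a fold threshold, 0 passed, or 5099 with no replicate block, and at an unadjusted p of 0.05 it was 3878, or 11020 with no replicate block. For the 60 other retinoid genes, the count was 2 at the thresholds used, 0 at an adjusted p of 0.05 (13 with no replicate block) and 8 at an unadjusted p of 0.05 (21 with no replicate block). These 8 were 4 higher and 4 lower, against 4 and 7 with centring on the median, 6 and 4 with equal 75th percentiles, and 7 and 5 with quantile normalization. For all probe sets the split was 1646 higher and 2232 lower, against 1339 and 3059, 2015 and 1554, and 2191 and 2119 in the same order. The other thresholds without the block were added after the data were seen. The cause of these shifts was not tested. Changes under 1.8-fold were left uncalled by the fold threshold itself.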
